A study of Mus musculus with 3 samples.

Results

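Pairs of neighbouring Tex10 peaks on the autosomes of mouse embryonic stem (ES) cells are described here. The list deposited for the FLAG library holds 5189 peaks, of which 5120 lie on chromosomes 1 to 19. Pairs were chosen by the mapped positions of the peaks alone: autosomal peaks less than 12.5 kb apart were joined, and each joined stretch of exactly 2 peaks was kept. This gave 469 pairs with 938 peaks, or 18.3% of the autosomal peaks. The other autosomal peaks were 3618 single peaks and 564 peaks in 156 stretches of at least 3. Scores and widths played no part in the choice, but they come from the same library and the same peak calls as the positions.

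The series has 3 libraries, each without a replicate, from J1 ES cells of the 129SV strain grown in serum with leukaemia inhibitory factor (LIF). All of them come from the line T10F10, which carries a 3xFlag-Tex10 transgene brought in on a piggyBac transposon in addition to whatever the cells make from their own Tex10 gene. The libraries are a chromatin immunoprecipitation (ChIP) with the antibody Flag (Sigma F1804), a control immunoprecipitation with Normal Mouse IgG (Millipore 12-371), and input DNA. Only the FLAG library is analysed here, so no peak is set against its own control signal. The labels do not say how many clones T10F10 represents. The list holds no reads, so its depth is unknown and no gene marker of the cell type can be checked.

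Tex10 is a nuclear protein known from complexes that act in ribosome assembly and in chromatin, and ES cells are the cultured form of the pluripotent cells of the early embryo. Proteins that lack a sequence-specific DNA-binding domain can still be recovered by ChIP, through partners that bind DNA. The series title places Tex10 at super-enhancers, which are regulatory regions built from several enhancers in close succession near genes of cell identity. The customary way to define them joins enhancers within 12.5 kb of each other, the same distance that defines the pairs here. A pair is the smallest such group, and a list of this kind does not say whether its peaks are neighbouring elements or parts of a single bound region. No gene model or sequence of mm9, the build of the list, was used here, so pairs are given by position and no gene is assigned to them.

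The peaks of a pair most often lay very close together. The gap, counted in bases from the end of one peak to the start of the next, had a median of 1982 bp, with quartiles of 509 and 6497 bp and a range of 101 to 12481 bp. In 176 pairs (37.5%, exact 95% binomial interval 33.1 to 42.1%) the gap was under 1 kb, and in 115 of these (24.5% of all pairs) it was under 500 bp. Gaps thinned out with distance: there were 230 pairs per kb of gap below 500 bp, 122 between 500 bp and 1 kb, 52 between 1 and 2.5 kb and 28.8 between 2.5 and 5 kb. The number fell again to 14.8 pairs per kb of gap from 5 to 7.5 kb, and was 21.6 from 7.5 to 10 kb and 20.8 from 10 to 12.5 kb. The counts thus fell with each wider class up to 5 to 7.5 kb of gap and showed no further steady fall.

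**Figure D1:**
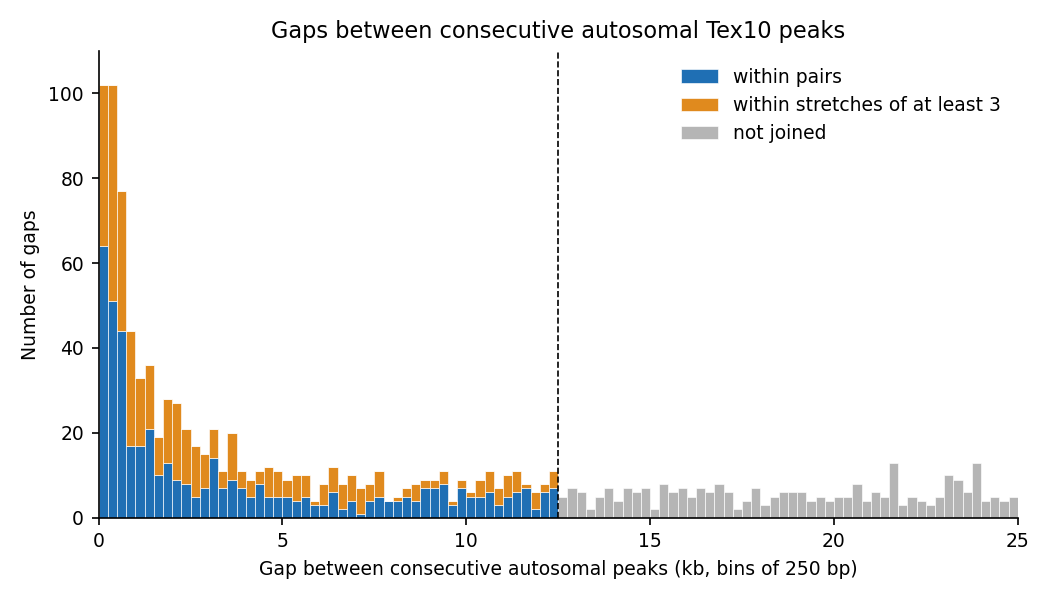
Number of gaps between consecutive autosomal peaks in bins of 250 bp (x axis in kb), stacked by whether the gap lies within a pair, within a stretch of at least 3 peaks, or between peaks that were not joined. The dashed line marks the joining distance of 12.5 kb. The bars are tallest below 1 kb, which holds 176 of the 469 pairs, and much lower from 5 kb on, with 34.8 gaps per kb from 10 to 12.5 kb and 22.4 from 12.5 to 15 kb.

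Gaps between all consecutive autosomal peaks were also most frequent at short distances. Counted over all of them, there were 408 gaps per kb below 500 bp, 34.4 per kb from 5 to 7.5 kb, 34.8 per kb from 10 to 12.5 kb and 22.8 per kb from 12.5 to 25 kb, the range just past the joining distance. Within stretches of at least 3 peaks the median gap was 1995.5 bp over 408 gaps, close to that of the pairs. The smallest gap anywhere on the autosomes was 101 bp, and 3 of 5101 gaps had that value. Libraries were read as 100 bp single reads, per the labels' protocols. Whether the peak caller merged peaks closer than this was not tested.

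The closest pairs were compact. On chromosome 4, peaks at chr4:139774978-139775220 and chr4:139775322-139775607 lay 101 bp apart, with scores of 3.67 and 2.79. The pair on chromosome 11 (chr11:6315323-6315618 and chr11:6315720-6316370), also 101 bp apart, had scores of 7.75 and 6.75. The next pairs in order were on chromosome 5 (chr5:30385807-30386415, gap 104 bp, scores 5.54 and 3.75), chromosome 13 (chr13:110808922-110810008, gap 106 bp, scores 3.01 and 16.9) and chromosome 16 (chr16:32608735-32609786, gap 107 bp, scores 3.96 and 3.92). In 4 of these 5 the scores were within 1.5 times of each other, and the pair on chromosome 13 was the exception. Over all pairs the span from the start of the first peak to the end of the second had a median of 2683 bp. In 195 pairs (41.6%) it was at most 2 kb. The peaks covered a median of 25.4% of the span, from 3.68% to 92.6%.

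At the other end, the pairs nearest to the joining distance were separated by 12481 bp on chromosome 3 (chr3:9641965-9654922), 12451 bp on chromosome 2 (chr2:118860447-118873425) and 12434 bp on chromosome 4 (chr4:124977730-124990825). Their scores were 5.37 and 4.18, 4.97 and 6.04, and 31.5 and 3.91. Just outside it, single peaks lay 12532 bp apart on chromosome 19 (scores 7.13 and 5.80), 12573 bp apart on chromosome 2 (5.84 and 4.91) and 12603 bp apart on chromosome 14 (5.81 and 6.76). Apart from the pair on chromosome 4, the neighbours on both sides of the limit had similar, moderate scores. They are too few to show whether scores change at 12.5 kb.

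The score is the number that the deposited list gives for each peak. Its scale is not named, so it serves here to rank peaks within this list, and a ratio of scores is no fold change of binding. Peaks in pairs had a median score of 4.97, with quartiles of 3.60 and 7.47 and a range of 1.51 to 316.8. Single peaks had a median of 5.14 (quartiles 3.79 and 7.59), and peaks in stretches of at least 3 a median of 5.54 (3.92 and 8.12). A score of at least 10 was reached by 123 of the 938 paired peaks (13.1%, exact interval 11.0 to 15.4%), against 14.2% of all 5120 autosomal peaks, 14.2% of single peaks and 16.3% of peaks in longer stretches. The share among paired peaks was near that of all autosomal peaks, whose value lies inside the interval. Intervals treat peaks as independent, which neighbours need not be, and cover counting error only.

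Paired peaks were slightly broader than single peaks. Their median width was 321 bp (quartiles 254 and 418 bp, highest 1196 bp), against 310 bp for single peaks (252 and 392 bp) and 334 bp in longer stretches (263.5 and 449 bp). A width of at least 500 bp was found in 125 paired peaks (13.3%, exact interval 11.2 to 15.7%), in 10.3% of single peaks (9.28 to 11.3%) and in 19.9% of peaks in longer stretches (16.6 to 23.4%). Over all autosomal peaks the share was 11.9%, which lies inside the interval of the paired peaks. The narrowest width of the list, 224 bp, was shared by 103 paired peaks (11.0%), against 11.7% of all autosomal peaks. In 6 pairs both peaks had this width and in 91 pairs 1 peak had it. Score and width went together more in pairs (Spearman rho 0.43 over 938 peaks) than in single peaks (0.33 over 3618). These coefficients are across peaks of a single library and the difference was not tested.

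**Figure D2:**
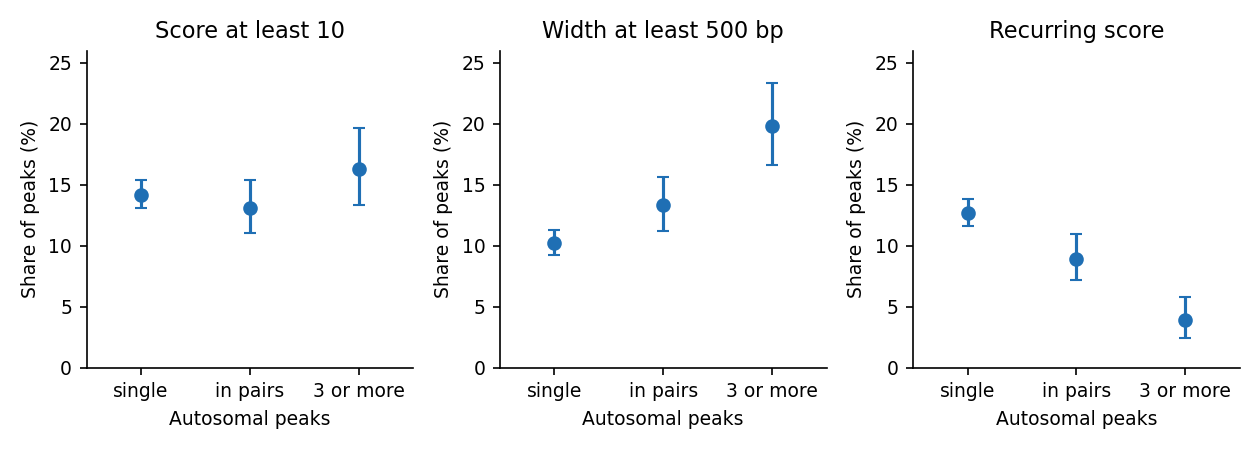
Share of autosomal peaks (%) with a score of at least 10, with a width of at least 500 bp and with a recurring score, for single peaks, peaks in pairs and peaks in stretches of 3 or more. Points are shares and bars exact 95% binomial intervals. Paired peaks lie between the other classes for width (13.3%) and recurring scores (8.96%), and lowest for high scores (13.1%).

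Some scores recur exactly in many peaks, and the share of such peaks was lower in pairs than in single peaks. Of the scores in the list, 5 occur in at least 90 peaks each. Among paired peaks 84 of 938 (8.96%, exact interval 7.21 to 11.0%) had such a score, against 11.0% of all autosomal peaks, 12.7% of single peaks (11.6 to 13.8%) and 3.90% of peaks in longer stretches (2.46 to 5.85%). Chromosome 8 has few recurring scores; without it the shares were 9.52% in pairs and 13.6% in single peaks. In 8 pairs both peaks had a recurring score, and in 5 pairs the scores were identical.

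Ranked against each other, the scores within pairs were only weakly related. The Spearman correlation between the peak with the lower and the peak with the higher coordinate was 0.064 over 469 pairs. It was 0.15 where peaks under 5 kb apart were joined and 0.036 under 25 kb, 0.024 where peaks under 500 bp apart were merged first, 0.16 with only scores of at least 3 and −0.043 with only scores above the autosomal median. For widths it was 0.11. All points share one library, its depth and its peak threshold. The higher score of a pair had a median of 6.76 and the lower a median of 3.91, and the median ratio was 1.59, with quartiles of 1.20 and 2.32. In 216 pairs (46.1%) the scores were within 1.5 times of each other, and in 73 (15.6%) they were more than 3 times apart. Consecutive autosomal peaks that were not joined, 4224 in number, had a correlation of 0.017 and a median ratio of 1.65, close to the values for pairs. Other measures differed more: both scores lay on the same side of 5.19, the median of all autosomal peaks, in 266 pairs (56.7%, exact interval 52.1 to 61.3%) against 49.95% of these neighbours (48.4 to 51.5%), and the correlation of widths was 0.11 against 0.023. Consecutive peaks within stretches of at least 3 had a higher correlation of scores than pairs, 0.21 over 408 gaps. Their share on the same side was 56.1%, their median ratio 1.72 and their correlation of widths 0.054.

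Either peak of a pair could be the stronger one. The peak with the higher coordinate had the higher score in 218 pairs (46.5%). The higher-scoring peak was also the wider one in 284 of the 459 pairs that differed in both measures (61.9%), with median widths of 349 bp for the higher-scoring and 299 bp for the lower-scoring peak. Among neighbours that were not joined this share was 62.3%, and the median widths were 334 and 291 bp.

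**Figure D3:**
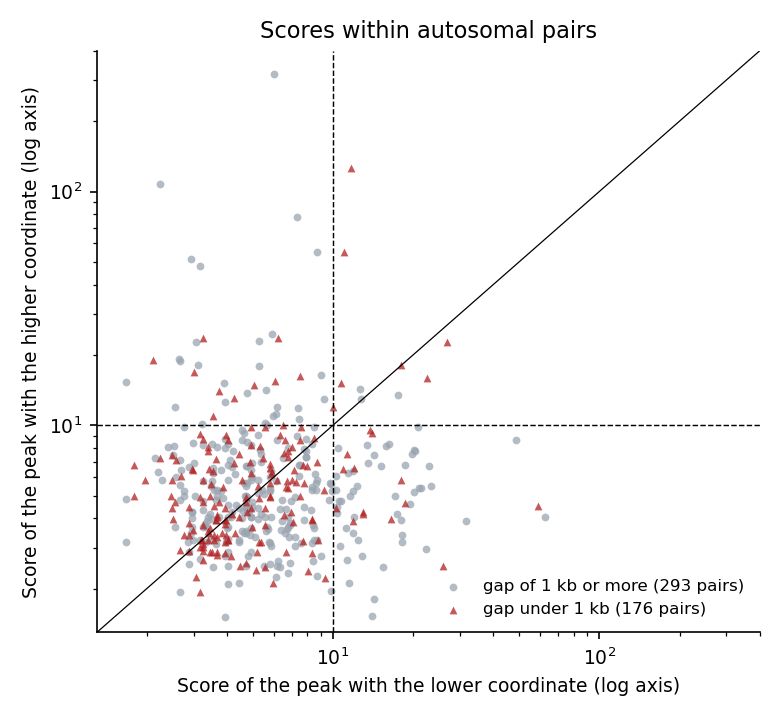
Score of the peak with the higher coordinate against that of its partner with the lower coordinate, both on log axes, for 176 pairs with a gap under 1 kb (triangles) and 293 with a wider gap (circles). Dashed lines mark a score of 10 and the solid line equal scores. The points form a cloud around the diagonal, and 10 pairs lie in the upper right field, where both scores are at least 10.

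In the closest pairs the 2 scores more often lay on the same side of the autosomal median. The classes of gap used for this were set after the data had been seen. With a gap under 500 bp, 77 of 115 pairs (67.0%, exact interval 57.6 to 75.4%) had both scores on the same side of the autosomal median. From 500 bp to 1 kb the share was 57.4% (44.1 to 70.0%, 61 pairs), from 1 to 2.5 kb 55.1% (43.4 to 66.4%, 78 pairs), from 2.5 to 5 kb 54.2% (42.0 to 66.0%, 72 pairs) and from 5 to 12.5 kb 50.3% (41.9 to 58.8%, 143 pairs). Neighbours that were not joined gave 49.95% (48.4 to 51.5%). The interval of the closest pairs lies above that value, and the intervals of the 4 wider classes include it. Likeness at short gaps was not particular to pairs. Consecutive peaks within stretches of at least 3 gave 56.1% over 408 gaps (51.2 to 61.0%). By the same classes of gap they gave 59.6%, 53.3%, 69.8%, 56.1% and 43.9%, so there the highest share was from 1 to 2.5 kb (58.9 to 79.2%).

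The difference in score rank was also smallest in the closest pairs, but it did not change steadily with the gap. Ranks are given as percentiles among autosomal peaks. The median difference within a pair was 17.4 percentile points with a gap under 500 bp, 20.3 from 500 bp to 1 kb, 32.4 from 1 to 2.5 kb, 25.8 from 2.5 to 5 kb and 29.3 from 5 to 12.5 kb. It was 28.6 among neighbours that were not joined, so only the classes under 1 kb lay well below that value. These medians have no interval. The Spearman correlation of scores was 0.22 over the 176 pairs with a gap under 1 kb and −0.030 over the other 293. Even in the closest class the likeness was modest, as the pair on chromosome 13 with scores of 3.01 and 16.9 shows.

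The closest pairs also had lower scores. Their median score was 4.45 with a gap under 500 bp, against 5.50 from 500 bp to 1 kb and 5.22 from 5 to 12.5 kb. Below 250 bp (64 pairs) it was 4.18. Peaks of the narrowest width made up 15.2% of the peaks in pairs with a gap under 500 bp and 11.0% over all pairs, with 6.25 to 11.5% in the 4 wider classes of gap. The share on the same side of the median counts weak with weak as well as strong with strong: over all pairs, both scores lay under the median in 142 (30.3%) and at or above it in 124 (26.4%). This split was not made by class of gap.

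**Figure D4:**
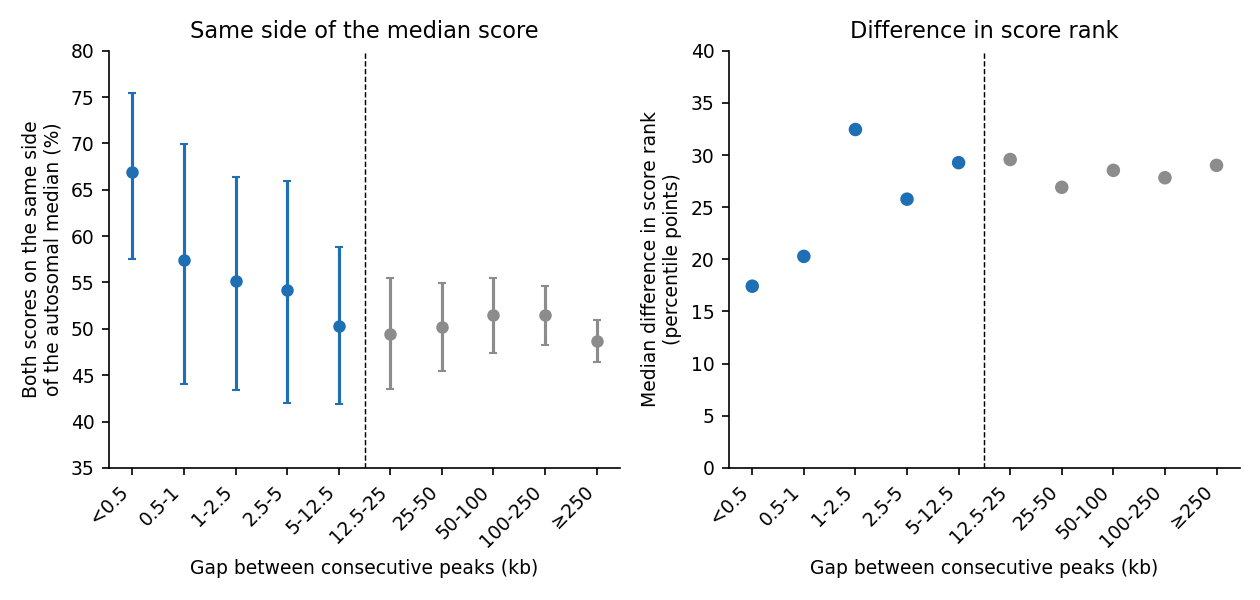
Likeness of scores by the gap between consecutive autosomal peaks (x axis, kb), for pairs (left of the dashed line) and for peaks that were not joined (right of it). The left panel gives the share with both scores on the same side of the autosomal median, with exact 95% binomial intervals, and the right panel the median difference in score rank. The share falls from 67.0% below 0.5 kb to 50.3% at 5 to 12.5 kb and stays near 50% beyond. Peaks within stretches of at least 3 are not shown.

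Pairs of which both peaks were strong were rare. In 10 of 469 pairs (2.13%, exact interval 1.03 to 3.89%) both scores were at least 10, in 103 (22.0%) 1 was, and in 356 (75.9%) neither was. Among neighbours that were not joined, both were at least 10 in 96 of 4224 (2.27%), so the share in pairs did not stand apart from it. Among consecutive peaks within stretches of at least 3, both were at least 10 in 22 of 408 (5.39%), a higher share. The 10 pairs lay on 9 chromosomes and had gaps of 126 to 2663 bp with a median of 675 bp. Of them, 7 had a gap under 1 kb, 3 a gap of 1 to 5 kb, and 0 of the 143 pairs with a gap of 5 kb or more had both scores that high, although in 37 of those 1 peak did.

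The pair with the highest lower score was on chromosome 6, where peaks at chr6:122290582-122291659 and chr6:122292199-122292715 scored 26.8 and 22.7. They were 1078 and 517 bp wide and lay 539 bp apart, and with 1595 bp this pair was also among the 3 that covered the most bases. The second was on chromosome 3 (chr3:135209230-135210603), with nearly equal scores of 17.99 and 18.02 and a gap of 162 bp. On chromosome 5 the peaks at chr5:137505944-137506333 and chr5:137506885-137507269 were almost the same width, 390 and 385 bp, and scored 22.6 and 15.9. On chromosome 7 (chr7:119831990-119835468) the scores were 17.5 and 13.5 across a gap of 1939 bp, and the nearest other peak was 494525 bp away. The fifth pair, on chromosome 8 (chr8:74840027-74843595, gap 2663 bp), scored 12.8 and 13.0 with widths of 273 and 633 bp. In all 5 pairs the scores were within 1.5 times of each other.

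The other 5 pairs with both scores at least 10 were named after their values were seen. Scores were 12.6 and 14.3 at chr6:64971515-64975128, 10.7 and 15.2 at chr19:11373512-11374394 and 10.01 and 12.0 at chr17:71214661-71216307. Their ratios of 1.13, 1.42 and 1.20 were also within 1.5 times. At chr15:74915839-74917533 they were 11.7 and 126.3 across only 126 bp, and at chr9:108728091-108729611 they were 11.0 and 54.9 across 799 bp. In these last 2 a peak among the 100 highest-scoring of the autosomes stood beside a moderate one.

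Of the 3 pairs that covered the most bases, the first 2 had moderate scores. At chr6:51419166-51421093 peaks of 649 and 1003 bp, 276 bp apart, covered 1652 bp with scores of 7.02 and 5.82. At chr7:125257362-125259585 peaks of 427 and 1170 bp covered 1597 bp with scores of 2.48 and 7.46. The pair at chr6:122290582-122292715 followed with 1595 bp, and it is the one with the highest lower score.

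The strongest paired peaks mostly had ordinary partners. Of the 100 highest-scoring autosomal peaks, all with a score of at least 35.8, 11 were in pairs, in 11 different pairs. They made up 1.17% of the paired peaks (exact interval 0.587 to 2.09%), against 2.05% of single peaks (1.61 to 2.56%). Among peaks in longer stretches the share was 2.66%. Over all autosomal peaks it was 1.95%, which lies inside the interval of the paired peaks. The scores of the 11 partners of these strongest paired peaks ran from 2.25 to 11.7 with a median of 6.04. Only 2 partners reached 10, and 5 were under the autosomal median. In 7 of these pairs the gap was at least 5 kb, and in 3 it was under 1 kb.

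The most unequal pair was on chromosome 4, where a peak scoring 316.8 (chr4:139814792-139815446) had a partner scoring 6.04 (chr4:139805461-139805707) at a distance of 9084 bp, a ratio of 52.5 between the scores. On chromosome 8 a peak of 107.7 (chr8:87471031-87471497) lay 9696 bp from one of 2.25, a ratio of 47.9. The next were on chromosome 16 (chr16:11134269-11144507, scores 2.94 and 51.7, gap 9416 bp), chromosome 4 (chr4:21639226-21650228, 62.3 and 4.05, gap 10188 bp) and chromosome 5 (chr5:33776975-33781237, 3.18 and 48.0, gap 3630 bp). In these 5 pairs the weaker peak was also the narrower, with 225 to 313 bp against 407 to 655 bp, and 4 of the 5 gaps were over 9 kb. The first of them lies 29853 bp from the pair at chr4:139774978-139775607, which has one of the 2 smallest gaps of all.

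Chromosomes with many peaks for their length also had many pairs. There were 0.190 pairs per Mb over the autosomes. Chromosome 11 had the most for its length, 44 pairs or 0.361 per Mb (1.90 times the autosomal value), followed by chromosome 5 with 45 pairs or 0.295 per Mb (1.56 times) and chromosome 4 with 44 pairs or 0.283 per Mb. Chromosome 12 had the fewest, 13 pairs or 0.107 per Mb. Over the 19 autosomes, pairs per Mb and peaks per Mb had a Spearman correlation of 0.82, and both counts come from the same peaks.

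Chromosome 8, which has the most peaks per Mb, was not the chromosome richest in pairs. It held 33 pairs (7.04% of all, exact interval 4.89 to 9.74%) with 8.65% of the autosomal peaks, with 0.250 pairs per Mb, below chromosomes 11, 5, 4 and 19. Of its 443 peaks 14.9% were in pairs, against 18.6% on the other autosomes, whereas 20.8% were in stretches of at least 3. On chromosome 5, 26.2% of 344 peaks were in pairs and 4.94% in longer stretches. The share of peaks in pairs was 23.5% on chromosome 4, 22.7% on chromosome 11 and lowest on chromosome 9, at 12.2%. The exact interval of this share included the 18.3% of all autosomes on 15 of 19 chromosomes. It lay above it on chromosomes 4, 5 and 11 and below it on chromosome 9, and it is too narrow, since the peaks of a pair come together.

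Pairs were also counted as a share of all joined units, single peaks included, so that each pair enters as 1 unit. They were 11.1% of the 4243 units on the autosomes, from 7.50% on chromosome 9 to 15.7% on chromosome 5. The exact interval included the autosomal share on 18 of 19 chromosomes, and the exception was chromosome 5 (11.7 to 20.4%), chosen here as the highest of 19. Chromosome 8 had 9.68% (6.76 to 13.3%). A gap under 1 kb was found in from 11 of 44 pairs on chromosome 11 to 10 of 18 on chromosome 9. Median gaps ran from 817 bp on chromosome 16 (13 pairs) to 3668 bp on chromosome 1 (31 pairs). These are small numbers, and whether chromosomes differ in gap was not tested.

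**Figure D5:**
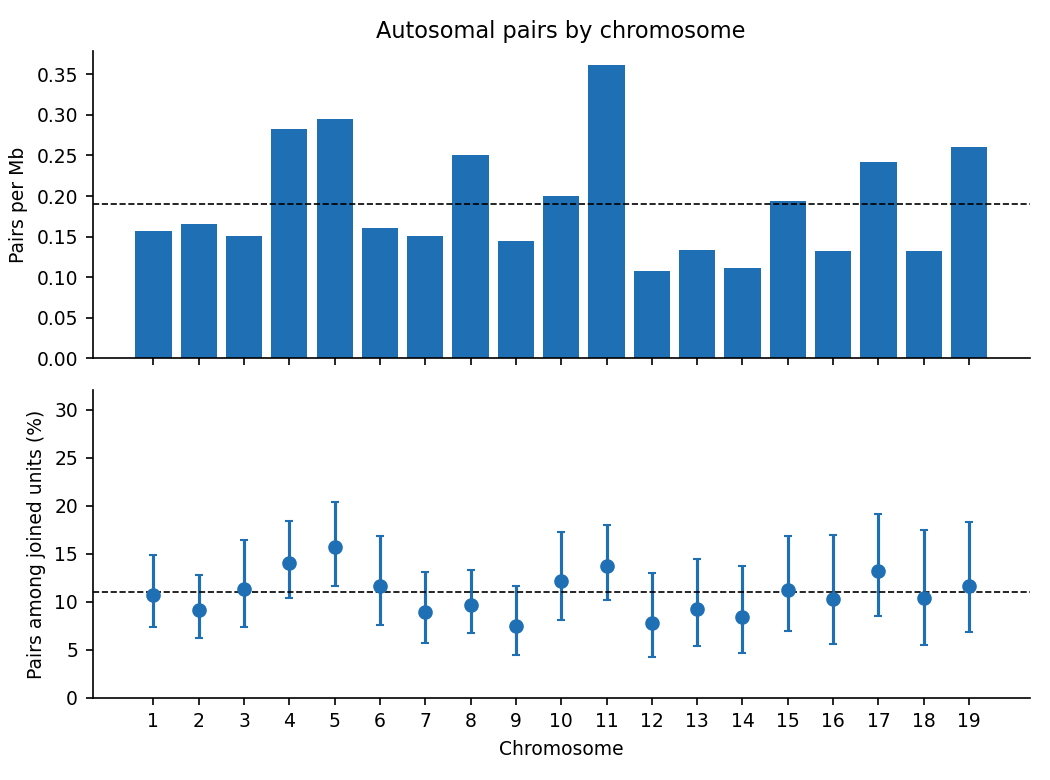
Pairs per Mb of mm9 chromosome length (top) and pairs as a share of all joined units, single peaks included (bottom, %, with exact 95% binomial intervals), for chromosomes 1 to 19. Dashed lines give the values for all autosomes. Chromosomes 11, 5 and 4 have the most pairs per Mb (0.361, 0.295 and 0.283), and in the lower panel chromosome 5 alone has an interval that leaves out the autosomal share.

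Within chromosomes the pairs were unevenly spread. The spread of all autosomal peaks over the same bins was not summarised, so the unevenness is not shown to be particular to pairs. Of 505 bins of 5 Mb, 254 held no pair and 130 held 1. Only 9 bins held at least 5, with 54 pairs (11.5%) in all, and each of these bins held 29 to 42 peaks. The fullest was on chromosome 4 from 130 to 135 Mb, with 8 pairs among 42 peaks. Bins with 7 pairs lay on chromosome 15 from 95 to 100 Mb, among 30 peaks, and on chromosome 18 from 35 to 40 Mb, among 36 peaks. In these bins, picked as the fullest, 38.1%, 46.7% and 38.9% of peaks were in pairs, against 18.3% over the autosomes. On chromosome 5, bins from 110, 120 and 135 Mb held 6, 5 and 6 pairs. Of the paired peaks 59.5% lay beyond the midpoint of their chromosome (exact interval 56.3 to 62.6%), against 55.4% of single peaks (53.8 to 57.0%). These intervals overlap, and since the peaks of a pair share a position, that for paired peaks is too narrow.

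Outside the pair, the next peak was usually a single one at some distance. The nearest other peak was a median of 70821 bp away (quartiles 30518 and 186984 bp), with a lower limit that the joining distance sets. For single peaks this median was 101300 bp. Another peak lay within 25 kb of 83 pairs (17.7%, exact interval 14.3 to 21.5%) and of 11.7% of single peaks (10.6 to 12.8%). Distance between peaks is also what told pairs from single peaks, so these distances are description and no test of a difference. The nearest peak was single for 392 pairs (83.6%), belonged to another pair for 51 (10.9%) and to a stretch of at least 3 for 26 (5.54%). Among all joined units of the autosomes, 85.3% were single peaks, 11.1% pairs and 3.68% longer stretches, so the shares of single peaks and of pairs were near the background.

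A few pairs lay side by side. Consecutive pairs on a chromosome were a median of 2246040 bp apart, but 28 of 450 such distances were under 100 kb and 10 were under 25 kb. The nearest were on chromosome 13, where chr13:63373991-63382080 and chr13:63394965-63396035 were 12884 bp apart, and on chromosome 2, where chr2:20574704-20576841 and chr2:20589773-20591431 were 12931 bp apart. Both groups of 4 peaks would have been joined at a slightly larger distance. On chromosome 17 the strong pair at chr17:71214661-71216307 lay 14567 bp from the pair at chr17:71197972-71200093.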

How the data were processed

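The authors deposited, for the FLAG library, a list of peaks with chromosome, start, end, name and a score that no header names. The submitters' processing notes name the build mm9 and, without their roles, the tools bedtools 2.18.1, Bowtie 1.0.0, FastQC 0.10.1 and SAMtools 0.1.19. The peak caller, its control and its threshold are not given in the sources used here. Starts were converted to 1-based positions. Autosomal peaks were sorted by start and joined where a start lay less than 12.5 kb past the highest earlier end. Chromosome lengths of mm9 came from GenomeInfoDb 1.38.1 (R 4.3.3), and 0 autosomal peaks ran past them. Shares have exact (Clopper-Pearson) 95% binomial intervals. Python 3.11.15, numpy 2.4.6, pandas 2.3.3, scipy 1.17.1 and matplotlib 3.10.9 were used. The joining was checked on simulated lists with planted pairs.

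With 1 library per group there is no replicate and no test was made. Depth is unknown, and a deeper library yields more peaks, and so more pairs, at the same enrichment. The pairs, the measures and the comparisons were chosen with earlier results of these data known. Named are the 5 pairs with the highest lower score, the 5 with the smallest gap, the 5 with the largest score ratio, the 3 with the most bases covered, and the 3 just under the joining distance with the 3 sets of single neighbours just over it. The text says where another pair was picked with its values in view. Alternatives were 2 other joining distances, merging close peaks, 2 score limits, leaving out chromosome 8 or the narrowest peaks, midpoint distances and, added after seeing the data, scores ranked within each chromosome. Genes near the pairs and sequences of the peaks were not analysed here, since the gene and promoter tables used belong to GRCm38.p6, another build.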

Additional observations from a re-analysis of the deposited data

How the results depend on the processing

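Of the 13 values followed, 12 could be computed without chromosome 8. The number of pairs, which has no interval, was then 436. The other values stayed within their intervals, but 436 of the 469 pairs are shared, which leaves little room to move. The correlation of scores within pairs also stayed within its interval with scores ranked within each chromosome (0.054). Joining peaks under 5 kb apart gave a median gap of 1011 bp, 49.6% of pairs with a gap under 1 kb, 15.2% of autosomal peaks in pairs, 9.77% of pairs on chromosome 8 and a median of 55548 bp to the nearest other peak. Joining under 25 kb gave 4363 bp, 28.8%, 20.5% and, to the nearest other peak, 100247 bp. These shifts follow in part from the joining distance itself, which bounds the gap. Merging peaks under 500 bp apart first gave a median gap of 3488 bp, 17.5% of pairs with a gap under 1 kb and 15.8% of peaks in pairs, and midpoint distances gave 27.5% under 1 kb; both removals of short gaps follow from their construction.

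With only scores of at least 3, the correlation of scores within pairs was 0.16, the median score 5.39 and the median score ratio 1.45. With only scores above the autosomal median there were 171 pairs with 13.4% of the peaks kept. Their correlation of scores was −0.043, their median score 7.60, ratio 1.44 and width 390.0 bp. Of them 48.5% lay on the same side of the median of the peaks kept, 7.60% had both scores at least 10, 32.2% had a gap under 1 kb and 10.5% were on chromosome 8, and the nearest other peak was 151627 bp away. Without the narrowest peaks the median width was 341.5 bp and the median score 5.36. Fewer and stronger peaks enter under these settings by construction; what else moved the correlation was not tested. No paired analysis was possible because no library has a replicate. The alternatives say nothing of a second experiment, and peaks under the threshold of the list are not in it.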
